A study of Mus musculus with 34 samples.

Results

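The 10 genes described here encode the high-affinity IgE receptor FcεRI and the first enzymes and adaptors that act under it in mast cells (MCs). They are the receptor subunit genes Fcer1a, Ms4a2 and Fcer1g, the kinase genes Lyn, Fyn, Syk and Btk, the adaptor genes Lat and Lat2, and Plcg2, which encodes a phospholipase. They were chosen by name from the 25853 genes in the tables, and all 10 had transcripts in MCs. FcεRI is built from an α chain that binds IgE (Fcer1a), a β chain that amplifies the signal (Ms4a2) and a dimer of γ chains (Fcer1g). When antigen crosslinks bound IgE, Lyn phosphorylates the β and γ chains, Syk docks on the γ chains and phosphorylates the adaptors LAT and NTAL (Lat2), and phospholipase Cγ raises calcium, after which the MC degranulates. Fyn acts beside Lyn at the receptor, and Btk helps to activate phospholipase Cγ.

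MCs were sorted as CD45+Lin−YFP+ cells from the untreated ear skin of males at 7 weeks of age, 3 of them WT and 3 Tln1∆MC, and sequenced by mCEL-Seq2, a method that counts the 3′ ends of single RNA molecules by unique molecular identifiers (UMIs). Both genotypes carried Mcpt5-cre+/− and the R26 LSL:YFP reporter on an albino C57BL/6J background, and the Tln1∆MC mice were Tln1 fl/fl in addition, so that talin-1, an adaptor of integrins, was deleted where the Mcpt5 promoter had driven Cre, in connective tissue MCs. The sort kept only cells in which Cre had turned on YFP. GFP+CD45− cells of Myh11-GFP ear skin served as cells that should lack the receptor. The paper describes them as vascular smooth muscle cells with some pericytes and a small fraction of fibroblasts. Their number of mice is not given, so they were taken as 1 sample and no test was made against them. The 30 MC libraries gave 2477 cells over 1000 transcripts (338, 294 and 272 in WT mice 1 to 3, and 285, 354 and 934 in Tln1∆MC mice 1 to 3), and the 4 Myh11-GFP libraries gave 330.

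Levels are transcripts per 10000 transcripts outside genes named Gm and a number. Those predicted genes took 14.2% of the transcripts in Tln1∆MC mouse 3 and between 36.8% and 58.0% in the other 5 mice, and were left out of the totals for this reason. The remaining transcripts numbered from 699401 to 5238325 per mouse. Since 3′ ends were counted, a level does not grow with transcript length, although genes can still differ in how well they are captured. The 8 MC markers summed to between 640.0 and 873.0 per 10000 in the 6 mice and to 0.194 in Myh11-GFP cells. In Myh11-GFP cells, fibroblast markers summed to 134.0, pericyte markers to 118.0 and smooth muscle markers to 76.2. Tln1 itself was at 4.51, 5.92 and 6.71 in WT and at 5.57, 4.33 and 3.63 in Tln1∆MC mice 1 to 3, which overlap. Which exons were removed is not given in the sources used here, and a 3′ count outside them checks nothing. Library 3 of WT mouse 2 held the most macrophage markers (92.3 per 10000) and library 8 of Tln1∆MC mouse 3 the most keratinocyte markers (114.0 per 10000). Fibroblast markers were highest in library 1 of WT mouse 2 (360.0) and library 2 of WT mouse 3 (184.0). These are the 4 libraries that stand apart below. In all libraries the same 96 well barcodes were in use, and 17 kept cells carried a barcode of the other set.

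On GRCm38, the receptor genes lie on the minus strand at chr1:173221284-173227214 (Fcer1a), chr19:11615523-11623719 (Ms4a2) and chr1:171229572-171234365 (Fcer1g). The kinase genes lie at chr4:3678115-3813122 (Lyn), chr10:39368855-39565381 (Fyn), chr13:52583173-52648792 (Syk) and chrX:134542336-134583570 (Btk), the adaptor genes at chr7:126363824-126369570 (Lat) and chr5:134600022-134615025 (Lat2), and Plcg2 at chr8:117498291-117635142. Lat2 overlaps Rfc2 on the other strand, and per the study's methods reads were aligned to genes in sense only. Lyn overlaps 4 genes on the other strand, Fyn 3, and Btk and Plcg2 1 each. Lat overlaps Mir7058 on the same strand.

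The 250 bases before the RefSeq start of each receptor subunit gene are shown. They were chosen because all 3 genes rose in the comparison by protease content below. Lyn, Fyn, Lat and Btk rose there as well. RefSeq promoters on GRCm38.p6 were found for 8 of the 10 genes. Capitals mark 6-base matches on either strand. The GATA motifs searched were AGATAA and its variant AGATAG, then TGATAA and its variant TGATAG. The E-boxes searched were CACGTG with the variants CACATG and its complement CATGTG, and the ETS motif searched was AGGAAG. The 3 stretches lie on the minus strand at chr1:173227230-173227479, chr19:11623720-11623969 and chr1:171234350-171234599, and each reads 5′ to 3′ towards its start.
Fcer1a: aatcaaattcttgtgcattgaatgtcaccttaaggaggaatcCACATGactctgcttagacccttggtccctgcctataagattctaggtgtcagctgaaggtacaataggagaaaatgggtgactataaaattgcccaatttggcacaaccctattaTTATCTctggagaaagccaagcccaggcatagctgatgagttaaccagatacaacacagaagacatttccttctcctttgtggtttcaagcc
Ms4a2: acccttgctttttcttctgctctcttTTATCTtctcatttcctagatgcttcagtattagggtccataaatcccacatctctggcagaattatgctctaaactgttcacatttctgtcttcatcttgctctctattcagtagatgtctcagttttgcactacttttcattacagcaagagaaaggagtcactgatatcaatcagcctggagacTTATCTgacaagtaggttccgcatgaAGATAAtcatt
Fcer1g: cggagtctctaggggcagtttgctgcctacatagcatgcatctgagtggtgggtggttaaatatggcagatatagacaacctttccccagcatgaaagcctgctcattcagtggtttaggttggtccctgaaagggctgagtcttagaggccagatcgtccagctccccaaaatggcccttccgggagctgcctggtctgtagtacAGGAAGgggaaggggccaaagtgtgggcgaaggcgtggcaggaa
The Ms4a2 stretch held 3 GATA matches, at 224, 37 and 11 bases before the start, and the Fcer1a stretch held 1, at 92 bases, with 1 E-box match. The Fcer1g stretch held no match to either and 1 ETS match. Of 32851 promoter stretches of this length in the table, 26.5% held at least 1 GATA match, 1.35% at least 3, 17.6% an E-box match and 29.5% an ETS match. A match is a run of letters and not a measured binding site.

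Among the 10 genes, the 3 receptor subunits differed widely in level. Fcer1g, the γ chain gene shared with other Fc receptors, had the highest level, at 11.8, 19.5 and 20.1 per 10000 in WT mice 1 to 3 and at 14, 12.8 and 16.5 in Tln1∆MC mice 1 to 3. Ms4a2 followed at 11.6, 11.3 and 10.3 in WT and 10.9, 8.77 and 8.08 in Tln1∆MC mice. Fcer1a, the IgE-binding chain, lay at 2.40, 2.76 and 2.73 in WT and 2.71, 1.55 and 3.31 in Tln1∆MC mice. Each mouse thus had more Ms4a2 than Fcer1a transcripts, by a ratio between 2.44 and 5.68, and more Fcer1g than Fcer1a transcripts, by a ratio between 4.90 and 8.28. On the log2 scale, the Ms4a2 to Fcer1a ratio was 2.07 ± 0.18 (SD, n = 3) in WT and 1.93 ± 0.61 (SD, n = 3) in Tln1∆MC mice (two-sided exact permutation p = 0.8, and 1.0 after Benjamini-Hochberg adjustment over both ratios). The Fcer1g to Fcer1a ratio was 2.67 ± 0.32 and 2.58 ± 0.41 (SD, n = 3 each; exact permutation p = 1.0). The smallest p that 3 against 3 mice allow is 0.1. Macrophages also use Fcer1g, and WT mice 2 and 3, with the highest Fcer1g levels, had 41.3 and 16.2 macrophage marker transcripts per 10000 against 1.19 to 7.53 in the other mice. In libraries 3 and 4 of WT mouse 3, Fcer1g was at 21.7 and 21.5, beside 3.83 and 2.75 macrophage marker transcripts per 10000. In libraries 1 and 2 of that mouse it was at 22.6 and 15.1, beside 19.0 and 38.6. In WT mouse 2 it was at 18.1 in library 3, the richest in these markers (92.3). It was at 24.9 and 21.1 in libraries 2 and 4 (20.8 and 9.94) and at 13.8 in library 1, which had the fewest. The part of macrophages in the Fcer1g level was not tested.

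Of the signalling genes, Lat, the membrane scaffold on which phospholipase Cγ assembles, was highest, with levels of 2.55, 4.71 and 4.02 in WT and 3.83, 3.15 and 3.62 in Tln1∆MC mice. It exceeded Fcer1a in 6 of 6 mice, although the ranges of both genes over the mice overlapped. Fyn averaged 2.14 ± 0.22 (SD, n = 6) and Lyn 1.56 ± 0.21, and Fyn was above Lyn in 6 of 6 mice with overlapping ranges. Btk (1.43 ± 0.10) and Lyn did not differ beyond their spread, with Lyn higher in 4 of 6 mice. Syk averaged 1.05 ± 0.18 and was below Btk in 6 of 6 mice. Plcg2 averaged 0.655 ± 0.224 and was below Syk in 5 of 6 mice. Lat2, which encodes the adaptor NTAL, was last at 0.161 ± 0.115. Its levels were 0.104, 0.131 and 0.0858 in WT mice and 0.115, 0.136 and 0.391 in Tln1∆MC mice, and rested on 6 to 16 transcripts in every mouse except Tln1∆MC mouse 3, which had 205. That mouse also had the most transcripts by far, and its 10 libraries ranged from 0.186 to 0.602. Thus 3 neighbouring pairs in the order of mean levels had ranges that did not overlap, namely Fcer1g above Ms4a2, Ms4a2 above Lat, and Plcg2 above Lat2.

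**Figure D1:**
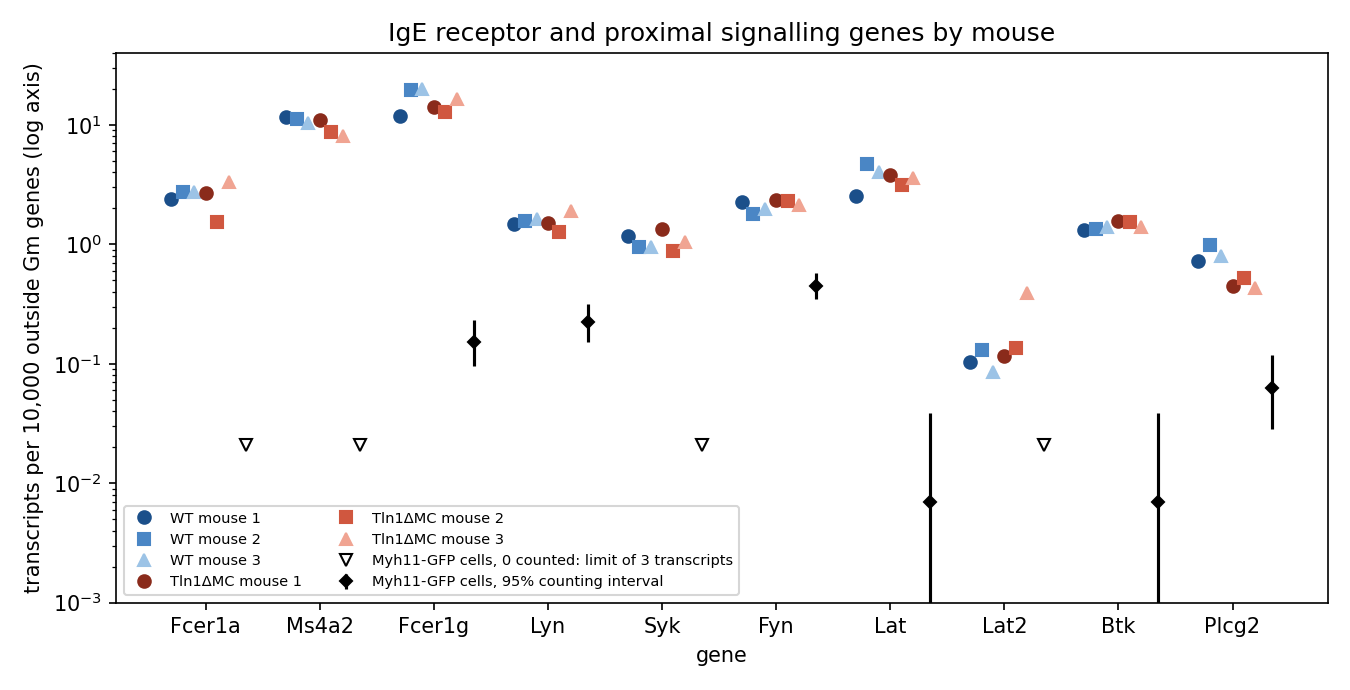
Transcripts per 10000 outside Gm genes (log axis) of the 10 genes in 6 mice and in Myh11-GFP cells, whose bars are exact Poisson 95% intervals of the count and whose open triangles mark genes with 0 transcripts at the limit of 3 transcripts. All 10 genes lie above the Myh11-GFP interval in every mouse, and Plcg2 is the gene whose Tln1∆MC points lie furthest below its WT points.

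All 10 genes were above the upper end of the Myh11-GFP interval in each of the 6 mice, as were 23.1% of the 8601 genes tested between genotypes and 8.54% of all genes in the tables. Fcer1a, Ms4a2, Syk and Lat2 had 0 transcripts in Myh11-GFP cells, where 3 transcripts would be a level of 0.0208. With this as the floor for the whole sample, the mean level of MCs was at least 124.0-fold higher for Fcer1a, at least 487.0-fold for Ms4a2, at least 50.6-fold for Syk and at least 7.71-fold for Lat2. Lat and Btk had 1 transcript each there, at a level of 0.00694 with an exact Poisson 95% interval from 0.000176 to 0.0387. Fcer1g was at 0.153 (0.0957 to 0.231), and the MC mean was 103.0-fold higher. The smallest folds were those of the Src family kinase genes, which many cell types use. Fyn was at 0.451 (0.348 to 0.575) in Myh11-GFP cells and 4.74-fold higher in MCs, and Lyn was at 0.222 (0.152 to 0.314) and 7.03-fold higher. Plcg2 was at 0.0625 (0.0286 to 0.119) and 10.5-fold higher. These intervals cover counting error only.

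The share of cells with a transcript was compared after each cell had been thinned to 1000 UMIs outside Gm genes, which left 2195 MCs and 307 Myh11-GFP cells and removed 282 and 23 shallower ones. Over all MCs, of which 923 came from Tln1∆MC mouse 3, Fcer1g was found in 77.3%, Ms4a2 in 56.6% and Fcer1a in 19.8%. By mouse the shares ran from 62.0% to 87.8% for Fcer1g and from 46.1% to 62.6% for Ms4a2. In Myh11-GFP cells the shares were 1.63% (exact binomial 95% interval 0.531% to 3.76%) for Fcer1g and 0 of 307 cells for Ms4a2 and Fcer1a, where the same interval reaches 1.19%. Without thinning, where the median depth per mouse ran from 1887.5 to 4761.0 UMIs in MCs and was 3904.5 in Myh11-GFP cells, 89.4%, 79.4% and 38.6% of MCs had Fcer1g, Ms4a2 and Fcer1a. By mouse, the thinned Fcer1a share was lowest in Tln1∆MC mouse 2 at 11.5% (8.25% to 15.5%) and highest in WT mouse 3 at 23.0% (17.3% to 29.5%). At this depth Lat was found in 31.7% of MCs, Fyn in 19.0%, Lyn in 16.6%, Btk in 12.8%, Syk in 9.43%, Plcg2 in 5.69% and Lat2 in 2.51%. An absent UMI at this depth does not show that a cell lacks the gene.

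The spread between cells of 1 mouse is given as a description, since it was not tested and the measure grows with the level. The variance of thinned UMIs over their mean, which is 1 where counting alone sets the spread, had a median over 6 mice of 1.44 for Fcer1a (1.10 to 1.73), 1.30 for Ms4a2 (1.15 to 1.59) and 1.19 for Fcer1g (1.04 to 1.34). It was 0.985 for Lyn, 1.06 for Syk, 0.950 for Btk, 0.950 for Plcg2 and 1.12 for Fyn, and in Tln1∆MC mouse 1 it was 1.11 for Fyn and 1.10 for Fcer1a. Lat, at 1.10, had a lower median than Fcer1a although its level was higher. All 3 subunits were found together in 9.09%, 10.3% and 14.3% of cells in WT mice 1 to 3. In Tln1∆MC mice 1 to 3 this was 7.92%, 5.30% and 10.7%. The product of the 3 shares was 7.25%, 9.76% and 12.4% in WT and 8.72%, 3.29% and 10.4% in Tln1∆MC mice, so Tln1∆MC mouse 1 lay below its product. The cell-level correlations between subunits ranged from −0.12 to 0.21 over mice and pairs, and are weak in counts this sparse.

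Across the 30 MC libraries, Ms4a2 and Fcer1g were lowest in library 8 of Tln1∆MC mouse 3, at 3.78 and 7.58 per 10000, against 7.96 to 9.79 and 14.9 to 20.3 in the other 9 libraries of this mouse. Fcer1a was at 1.68 there and lowest in library 9 of Tln1∆MC mouse 2, at 0.945. Keratinocyte markers were at 114.0 per 10000 in library 8 of Tln1∆MC mouse 3, and their part was not tested. After the mean of each mouse had been taken off, the log2 level of Fcer1g rose and fell most closely with Sh3bgrl3 (Spearman rho 0.87), Slc29a1 and Fam129b (0.83 each), that of Ms4a2 with Rab27b and Prkcb (0.80 each) and Mctp1 (0.74), and that of Fcer1a with Mff (0.77), Tpsab1 (0.76) and Mrgprb1 (0.75), among 3264 genes. Rab27b encodes a GTPase of granule release, Prkcb a protein kinase C, Tpsab1 a mast cell tryptase and Mrgprb1 a receptor for cationic secretagogues. Between the subunits, rho was 0.64 for Fcer1a with Fcer1g, 0.34 for Ms4a2 with Fcer1g and 0.33 for Fcer1a with Ms4a2, and without the 2 libraries richest in macrophage and in keratinocyte markers 0.57, 0.13 and 0.22. Fcer1g also followed Lat (0.72). Libraries of 1 mouse share an animal and differ in depth and in other cell types, so these values are descriptions.

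**Figure D2:**
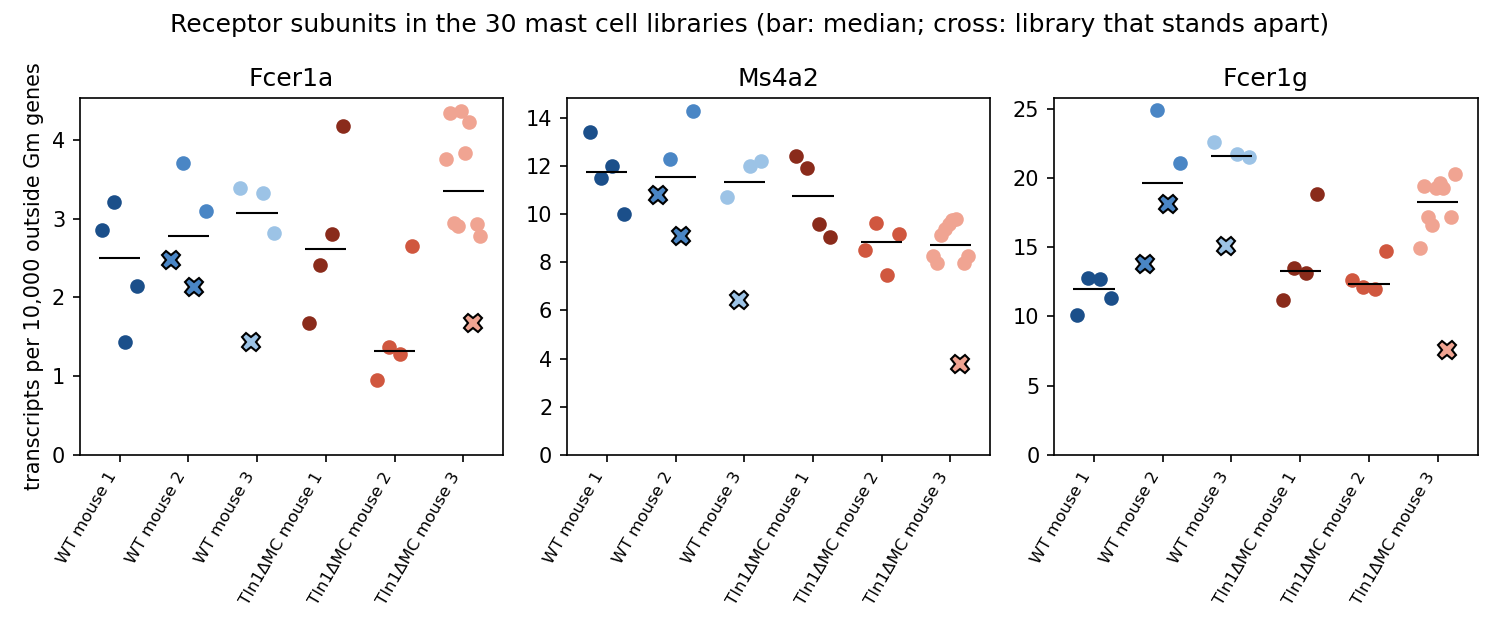
Levels per 10000 transcripts outside Gm genes of Fcer1a, Ms4a2 and Fcer1g in the 30 MC libraries by mouse, with the median of each mouse as a bar and crosses for the 4 libraries that stand apart. Library 8 of Tln1∆MC mouse 3 has the lowest Ms4a2 (3.78) and Fcer1g (7.58) values of all.

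The first comparison asked whether the loss of talin-1 altered these genes in MCs. None of the 10 genes passed an adjusted p of 0.05 (limma, Benjamini-Hochberg over 8601 genes), nor did any other gene (0.0% called), while 497 genes (5.78%) had an unadjusted p under 0.05. Plcg2 had the lowest p among the 10 genes. Its level was 0.728, 0.994 and 0.801 in WT mice 1 to 3 and 0.449, 0.526 and 0.432 in Tln1∆MC mice 1 to 3, on 56 to 114 and 35 to 226 transcripts. Every Tln1∆MC mouse was below every WT mouse. The log2 difference was −0.82 (SE 0.21, 95% interval −1.30 to −0.34), with an unadjusted limma p of 0.00336 and an adjusted p of 0.695. Of all genes tested, 6.31% were lower and 5.34% higher without overlap between genotypes, 11.6% in both directions. Among the 10 genes, Plcg2 was lower in this way and Btk higher, at 1.32, 1.35 and 1.39 in WT and 1.58, 1.53 and 1.40 in Tln1∆MC mice, a log2 difference of 0.15 (SE 0.17, adjusted limma p = 0.932).

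The receptor subunits showed no difference beyond the spread between mice, with intervals that leave room for moderate changes. The log2 difference was −0.13 (95% interval −0.73 to 0.47) for Fcer1a, −0.27 (−0.69 to 0.15) for Ms4a2 and −0.22 (−0.76 to 0.32) for Fcer1g, with adjusted limma p-values of 0.961, 0.885 and 0.926. Ms4a2 averaged 11.1 ± 0.69 (SD, n = 3) in WT and 9.24 ± 1.45 (SD, n = 3) in Tln1∆MC mice, and its ranges overlapped. For Lyn, Syk, Fyn and Lat the differences lay between −0.05 and 0.18, and the widest interval of the 10 was that of Lat2 (0.75, −0.30 to 1.80), whose high value came from Tln1∆MC mouse 3. The median difference was −0.03 over the 10 genes and −0.03 over all genes tested. Profiles of unused barcodes correlated at 0.822 between WT mouse 1 and Tln1∆MC mouse 1 and at 0.865 to 0.887 among WT mice 2 and 3 and Tln1∆MC mouse 2, so these were read as 2 background sets, since the labels give no sequencing batch. Since Plcg2 was lower in every Tln1∆MC mouse than in every WT mouse, it had to be lower within each set. It was at 0.449 in the Tln1∆MC mouse against 0.728 in the first set. In the second it was at 0.526 against 0.994 and 0.801. The sets are therefore no separate test of this difference. Tln1∆MC mouse 3 correlated at 0.764 to 0.778 with the 3 mice of the second set and at 0.451 to 0.469 with the first, and was kept as its own set. Its Plcg2 level, 0.432, was below both WT mice of the second set for the same reason.

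**Figure D3:**
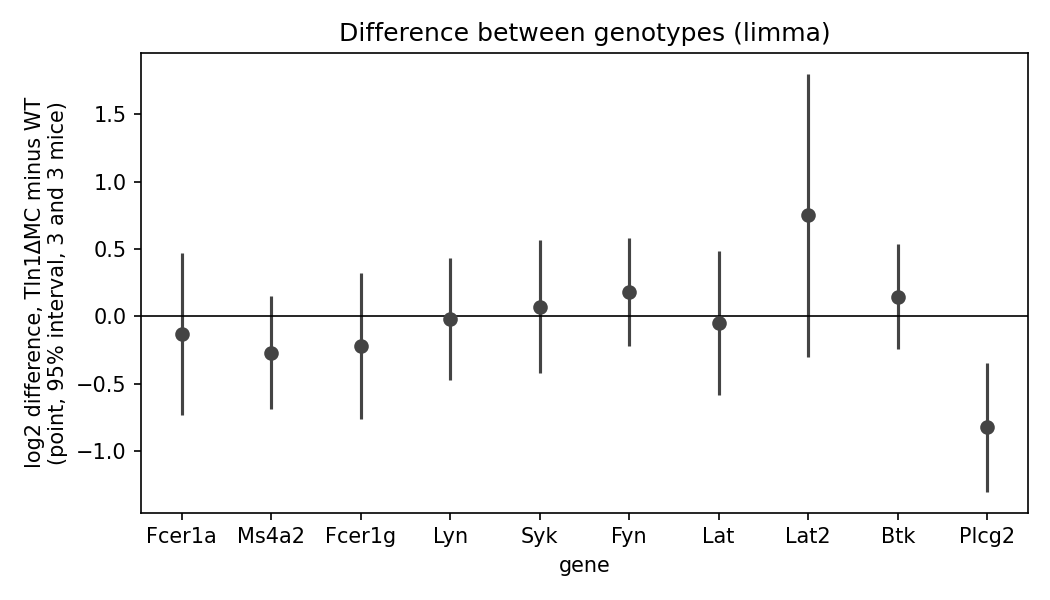
Log2 difference in level between 3 Tln1∆MC and 3 WT mice for the 10 genes, with 95% intervals from limma. The interval of Plcg2 (−1.30 to −0.34) leaves out 0 before adjustment, and those of the other 9 genes hold 0.

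Of 47 further genes of the pathway, 35 could be tested between genotypes and none passed. Their levels place the 10 genes in context. In 24 of the 47, every mouse was above the Myh11-GFP interval. This held for 8.54% of all genes in the tables and 23.1% of the 8601 genes tested between genotypes. The adaptor genes Grb2 and Lcp2, which encodes SLP-76, averaged 5.11 and 2.44 per 10000 over 6 mice, and the guanine exchange factor gene Vav1 0.637. Among lipid and calcium genes, Prkcb stood at 7.70, Prkcd at 2.55 and the IP3 receptor gene Itpr2 at 1.64. The negative regulators Inpp5d (SHIP1), Ptpn6 (SHP-1) and Fcgr2b, an inhibitory IgG receptor, stood at 3.17, 2.43 and 2.20. Fcgr3, an activating IgG receptor that pairs with the γ chain, stood at 3.08, whereas Fcgr1 and Fcer2a, the low-affinity IgE receptor, were at 0.0165 and 0.0379. Of the kinases beside the 10 genes, Tec (0.390) and Src (0.371) led, both well under Lyn and Fyn.

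The second comparison asked whether receptor transcripts differ between MCs rich and poor in granule proteases. Within each mouse, the cells were ordered by their thinned UMIs of Cma1, Tpsb2, Mcpt4 and Cpa3, and about 33% of cells at the upper end (68 to 324 per mouse) were set against about as many at the lower end (69 to 320), with the 4 genes left out of the totals and mouse as a block. Fcer1a was at 4.29, 5.16 and 4.38 per 10000 in protease-high cells of WT mice 1 to 3 and at 1.22, 1.28 and 1.89 in protease-low cells. In Tln1∆MC mice 1 to 3 it was at 5.00, 2.36 and 5.39 against 1.29, 0.801 and 1.47. Each mouse had 2.32-fold to 3.99-fold more in its protease-high cells, and the high and low values did not overlap over the 6 mice. The mean log2 difference was 1.73 (SE 0.14, adjusted limma p = 1.42e-05), which ranked 5 among 4984 genes tested. In the same test 12.4% of genes passed, 8.93% higher and 3.45% lower.

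Ms4a2 and Fcer1g also rose, by less. Ms4a2 went from 9.24, 7.09 and 9.31 in protease-low cells of WT mice 1 to 3 to 15.8, 15.2 and 13.7 in protease-high cells, and from 10.6, 5.95 and 6.20 to 13.2, 11.1 and 10.2 in Tln1∆MC mice. The log2 difference was 0.73 (SE 0.12, adjusted limma p = 0.00196). Fcer1g went from 8.79, 15.4 and 16.5 to 16.2, 24.0 and 24.3 in WT and from 12.4, 7.98 and 12.4 to 19.2, 19.1 and 21.2 in Tln1∆MC mice (0.79, SE 0.12, adjusted limma p = 0.00117). Both were higher in protease-high cells of 6 of 6 mice. The change of Fcer1a did not differ in size between genotypes beyond the spread (Tln1∆MC minus WT 0.11 on the log2 scale, exact permutation p = 0.7, adjusted 0.935 over 27 such differences, n = 3 each).

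**Figure D4:**
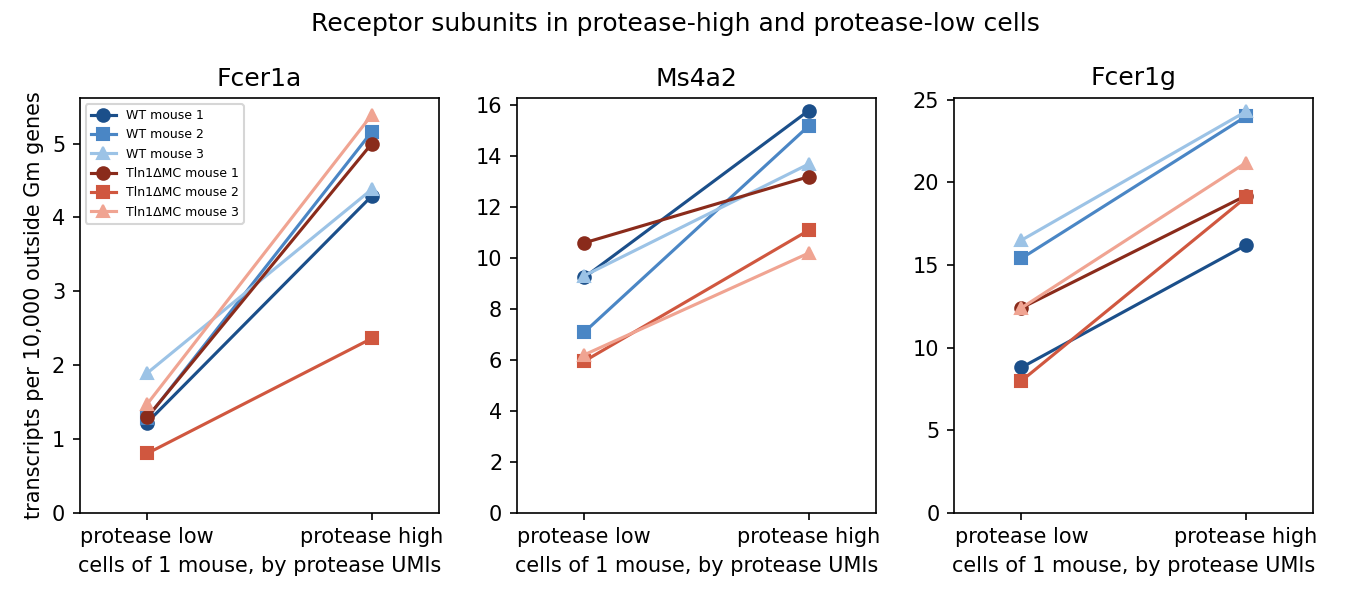
Levels of Fcer1a, Ms4a2 and Fcer1g in protease-low and protease-high cells, with 1 line for each of 6 mice. They are per 10000 transcripts outside Gm genes and outside the proteases used for the split. Every line rises, and Fcer1a rises most, between 2.32-fold and 3.99-fold.

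In all, 7 of the 9 genes that could be tested rose in protease-high cells and none fell. Beside the subunits these were Lyn (log2 difference 0.58, SE 0.15), Fyn (0.50, SE 0.15), Lat (0.48, SE 0.13) and Btk (0.70, SE 0.17), each higher in 6 of 6 mice, as were 14.3% of all genes tested. Plcg2 was also higher in 6 of 6 mice but did not pass (0.57, SE 0.20, adjusted limma p = 0.0801). Syk differed by 0.24 (SE 0.20) and was higher in 3 of 6 mice (adjusted limma p = 0.452). Lat2 had too few transcripts to be tested. The median of all genes tested was 0.16 and that of the 9 genes 0.58. When the totals were scaled by TMM, which brought the median of all genes to −0.01, 158 genes rose and 255 fell in place of 445 and 172, and only Fcer1a (1.56), Ms4a2 (0.56) and Fcer1g (0.63) of the 9 stayed past the threshold. Fcer1a and Fcer1g passed in the main test and under every alternative tried.

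Markers of other cell types were higher in protease-low cells of some mice. Per 10000, macrophage markers ranged over mice from 1.44 to 91.3 in protease-low and from 0.898 to 7.94 in protease-high cells, keratinocyte markers from 0.0426 to 57.3 and from 0.0 to 2.93, and fibroblast markers from 0.881 to 173.0 and from 0.678 to 4.76. Gm genes took 16.1% to 68.2% of transcripts in protease-low and 12.3% to 44.9% in protease-high cells. Depth differed too. Median UMIs outside Gm genes in protease-low cells were 1922, 2697 and 2388 in WT mice 1 to 3. In Tln1∆MC mice 1 to 3 they were 2392, 2082.5 and 3968. In protease-high cells they were 3474, 3624 and 2159.5 in WT and 2836.5, 3901 and 5603.5 in Tln1∆MC mice. The part of depth in the differences was not tested. Among cells with under 0.1% of transcripts from these 3 marker lists, which was chosen after seeing the data, Fcer1a still rose by 1.45 (adjusted limma p = 6.77e-05) and Fcer1g by 0.58 (0.00689), whereas Ms4a2 at 0.37 did not pass (0.0546) and neither did the other genes. When cells were split by Tpsb2 alone, also chosen after seeing the data, Ms4a2 differed by 0.12 (adjusted limma p = 0.641), and without mouse as a block by 0.73 (0.056). Without the 4 libraries that stand apart, Fcer1a (1.43), Ms4a2 (0.48), Fcer1g (0.64), Lyn and Btk passed. In cells with at most 50% Gm transcripts the 3 subunits passed, Fcer1a at 1.69.

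Of 31 other pathway genes tested in this split, 7 rose and none fell, against 8.93% and 3.45% of all genes. The 5 with the lowest p were Fcgr3 (log2 difference 0.75, SE 0.14), Grb2 (0.59, SE 0.12), Ptpn6 (0.63, SE 0.13), Prkcd (0.60, SE 0.13) and Inpp5d (0.58, SE 0.14), each higher in 6 of 6 mice. The list includes both activating and inhibitory members. With TMM scaling 3 of them passed (Grb2, Ptpn6 and Fcgr3), and in cells with under 0.1% markers of other cell types 1 rose (Fcgr3) and 1 fell (Tec).

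The remaining comparisons asked whether the genes differ with signs of activity in the cells. Immediate early genes rise within minutes of a stimulus, which can include tissue dissociation. Cells were split by their immediate early UMIs within each mouse in the same way. None of the 9 genes tested passed (limma, 8.43% of 4948 genes called, with 5.09% higher and 3.33% lower), and 1 of the 9 had an unadjusted p under 0.05, against 22.6% of all genes. Lat came closest, at 1.99, 4.30 and 3.93 in immediate-early-high cells of WT mice 1 to 3 against 2.60, 4.94 and 4.19 in low cells, and at 3.02, 2.82 and 3.65 against 4.45, 3.77 and 3.60 in Tln1∆MC mice. It was lower in 5 of 6 mice, by a log2 difference of −0.27 (SE 0.11, adjusted limma p = 0.148), and passed without the 2 libraries richest in macrophage and in keratinocyte markers (−0.34, adjusted p = 0.0495) and without the 4 libraries that stand apart (−0.36, 0.0465). Fcer1a differed by 0.05 (95% interval −0.23 to 0.34), Ms4a2 by 0.15 (−0.03 to 0.33) and Fcer1g by 0.02 (−0.17 to 0.20). Among 31 pathway genes, Tec (1.31, SE 0.30), Gab2 (0.79, SE 0.21) and Cblb (0.76, SE 0.19) rose and Pik3ca fell by 0.66 (SE 0.18). Tec encodes a kinase related to Btk, Gab2 a scaffold of the Fyn branch and Cblb a ubiquitin ligase that limits signalling. Macrophage markers ranged over mice from 0.916 to 69.5 per 10000 in immediate-early-low and from 0.898 to 23.2 in high cells, keratinocyte markers from 0.04 to 43.3 and from 0.0 to 5.74, and fibroblast markers from 0.529 to 193.0 and from 0.736 to 5.54, and their part in these differences was not tested. In cells with at most 50% Gm transcripts none of these pathway genes passed, and without the 4 libraries that stand apart 1 pathway gene did, Lcp2, which was lower.

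Cells with at least 1 Il13 or Il6 UMI after thinning (60 to 250 per mouse) were set against those with none (136 to 673 per mouse). None of the 9 genes passed (limma, 1.98% of 6219 genes called), nor did any of 34 pathway genes, and 0 of the 9 had an unadjusted p under 0.05, against 13.1% of all genes. The log2 difference was 0.05 (95% interval −0.20 to 0.29) for Fcer1a, 0.02 (−0.13 to 0.17) for Ms4a2 and 0.06 (−0.08 to 0.21) for Fcer1g. Btk was at least as high in cytokine-positive cells of 6 of 6 mice, from 1.00-fold to 1.35-fold (adjusted limma p = 0.539), while 3.99% of all genes were higher in every mouse. No difference between genotypes in these changes passed after adjustment. The change of Lat was 1.34-fold, 1.42-fold and 1.06-fold in WT mice and 0.80-fold, 0.80-fold and 1.03-fold in Tln1∆MC mice. The difference between genotypes was −0.54 on the log2 scale (exact permutation p = 0.1, the smallest that 3 against 3 mice allow, and 0.935 after Benjamini-Hochberg adjustment over the 27 differences). Ms4a2, at 0.11, had the same exact permutation p of 0.1 and adjusted value.

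**Figure D5:**
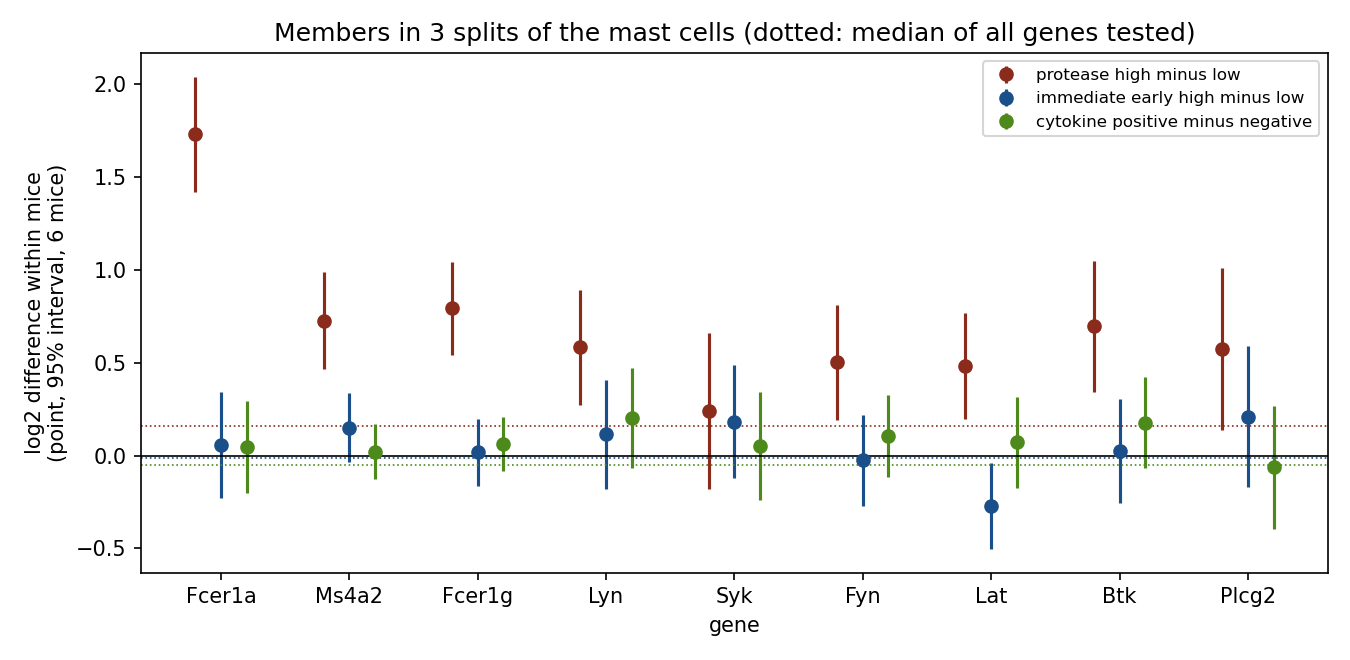
Log2 difference of 9 genes within 6 mice in the splits by protease, immediate early and cytokine transcripts, with 95% intervals from limma and the median of all genes tested as a dotted line. In the protease split Fcer1a lies at 1.73, apart from the other genes, while the subunits lie near 0 in the other splits.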

How the data were processed

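Per the labels and the study's methods, single cells were sorted into plates with doublets excluded, and reads were demultiplexed with bcl2fastq 2.17.1.14 and aligned with BWA 0.6.2-r126 to mm10 gene models. The deposited values are transcript counts, which the authors estimated from whole UMIs with a binomial correction and left without scaling. Every value returned to a whole UMI within 1e-06. Reads were aligned in sense to merged gene loci.

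Cells over 1000 transcripts were kept in 34 tables, with at most 2% from Kcnq1ot1, which removed 0 cells. Doublets were not called. Sums were made by mouse, taking the number in the title as the mouse, and log2(level per 10000 + 0.01) was fitted by limma-trend (limma 3.58.1, R 4.3.3) with Benjamini-Hochberg adjustment at 0.05. This pseudocount understates changes of low genes. Genes with at least 10 transcripts in 3 of 6 mice, or in 6 of the sums of a split, were tested. P-values measure the spread between these mice. The fits were tested on simulated data with large changes and the same added spread for all genes. This does not show how well they find smaller changes. The 10 genes and all lists were chosen with earlier results of these data known. All 10 were named, with the 3 highest genes of each pathway list, up to 5 pathway genes past the threshold per comparison by lowest p, and the 3 genes most like each subunit over libraries, at mean levels of at least 0.5. A pathway gene that this rule names is not reported here. A count model was planned and not used. Single values were compared with scipy 1.17.1. Positions are from GENCODE M21 (GRCm38). Alternatives concerned scaling, filters, pseudocounts, cells, libraries, splits, blocks and each mouse.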

Additional observations from a re-analysis of the deposited data

Results flagged for a closer look

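Libraries of 1 mouse were compared for each gene, and a value is given here where its gap to the nearest library, over the range, exceeded Dixon's 95% critical value. Chance gives about 1 in 20 such groups where groups are independent, but the genes of 1 library share a total and other cell types. A gene with transcripts in 1 library alone meets the rule in any case. In all, 14 of 66 groups met the rule, 5 of them through library 8 of Tln1∆MC mouse 3. That library, with 114.0 keratinocyte marker transcripts per 10000, was lowest for Ms4a2 (3.78 per 10000, others 7.96 to 9.79), Fcer1g (7.58, others 14.9 to 20.3), Lyn (0.910, others 1.84 to 2.31), Lat (1.94, others 3.58 to 4.91) and Btk (0.734, others 1.25 to 1.83). The part of keratinocyte transcripts in these values was not tested.

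Library 2 of WT mouse 3, with 184.0 fibroblast marker transcripts per 10000, had Fcer1g at 15.1 against 21.5 to 22.6. Plcg2 was at 0.439 in library 13 of WT mouse 1 against 0.785 to 0.824. Lyn was at 0.953 in library 4 of Tln1∆MC mouse 1 against 1.62 to 1.71, and at 0.962 in library 11 of Tln1∆MC mouse 2 against 1.34 to 1.40. Library 11 also had the highest Fyn of that mouse, 2.74 against 2.11 to 2.20. Syk was at 1.16 in library 1 of WT mouse 2 against 0.870 to 0.914, and at 1.23 in library 12 of Tln1∆MC mouse 2 against 0.749 to 0.794. In library 15 of Myh11-GFP cells, Lat and Btk were at 0.0265 each, from 1 transcript apiece, against 0.0 in the others.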

How the results depend on the processing

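The count model listed among the alternatives was not run, although the values are estimated counts that could have been rounded for one. Deviations of same-numbered mice of the 2 genotypes correlated at 0.16, −0.21 and −0.27 over 8601 genes. Those of WT mouse 2 and Tln1∆MC mouse 3 correlated at 0.42. With 3 mice per genotype these values cannot show whether mice are paired. The paper calls the controls littermates, and the labels give no litter. With the replicate number as a block 0 genes passed, none of the 10 included, with Plcg2 at −0.82 (adjusted limma p = 0.806). Between genotypes, 0 of the 10 genes passed under any of 26 alternatives, where Plcg2 ranged from −0.92 to −0.59 (adjusted p from 0.222 to 1.0). Over all genes, totals that hold Gm genes gave 45 calls (3 higher, 42 lower, with a median shift of 0.18), the set of mice that share a background of unused barcodes as a block 4, and leaving out 1 mouse between 0 and 15, the latter without Tln1∆MC mouse 1. The cause of these changes was not tested.

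In the protease split the 9 genes gave 3 calls with TMM scaling, 2 with no replicate block (mouse) where 73 of all genes passed, 3 in cells with at most 50% Gm transcripts (162 of all genes), 2 in cells with under 0.1% markers of other cell types and 3 when split by Tpsb2 alone (128 of all genes). Splitting by Mcpt4 alone gave 154 calls over all genes. Leaving out 1 mouse gave 4 to 7 calls of the 9 and 322 to 514 of all genes, with 4 without Tln1∆MC mouse 3, and over all genes 322 without WT mouse 1, 393 without WT mouse 3 and 405 without Tln1∆MC mouse 3. In the immediate early split, no replicate block gave 158 calls over all genes, and 1 of the 9 genes, Lat, passed without the 2 libraries richest in macrophage and in keratinocyte markers and without the 4 that stand apart. In the cytokine split, no replicate block gave 4 calls over all genes, leaving out the 2 libraries 68, leaving out the 4 libraries 51, and leaving out 1 mouse 77 to 109, the lowest without WT mouse 2. Leaving out the keratinocyte-rich library, the 2 or the 4 libraries, the limits on Gm transcripts and on markers and the single proteases were chosen after seeing the data. Depth limited Lat2, which had too few transcripts for any split.

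The difference in the log2 ratio of Ms4a2 to Fcer1a ranged from −0.43 to 0.18 with 1 mouse left out, changing sign without Tln1∆MC mouse 3, and that of Fcer1g to Fcer1a from −0.32 to 0.0445, changing sign without WT mouse 3, Tln1∆MC mouse 1 or Tln1∆MC mouse 3. Shares of MCs with Fcer1a, Ms4a2 and Fcer1g were 38.6%, 79.4% and 89.4% without thinning, 10.7%, 34.2% and 54.4% at 500 UMIs and 5.10%, 26.4% and 47.6% for at least 2 UMIs. The 10 genes stayed above the Myh11-GFP interval under all 6 alternatives tried for it. 

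Between genotypes, the log2 difference changed sign for genes that passed no test. With TMM scaling, Lyn was at 0.0135. With median-of-ratios scaling, Lyn was at 0.0046. With totals that hold Gm genes, Fcer1a was at 0.0971, Fcer1g at 0.0103, Lyn at 0.207 and Lat at 0.178. In cells over 2000 transcripts, Lat was at 0.0162. Without the library richest in macrophage markers, Lyn was at 0.012. Without the library richest in keratinocyte markers, Lyn was at 0.0314. Without the libraries richest in macrophage and in keratinocyte markers, Lyn was at 0.0621. With 1 mouse left out in turn, Lat ranged from −0.304 to 0.136, Lyn from −0.173 to 0.122, Syk from −0.092 to 0.216 and Fcer1a from −0.36 to 0.186. In the immediate early split, the log2 difference changed sign for genes that passed no test. With 500 UMIs per cell, Fyn was at 0.11 and Plcg2 at −0.0422. With 50% of cells per class, Lyn was at −0.0336, Fyn at 0.0473 and Btk at −0.0363. Without the library richest in keratinocyte markers, Fcer1g was at −0.0344 and Btk at −0.0163. Without the libraries richest in macrophage and in keratinocyte markers, Fcer1g was at −0.0301 and Btk at −0.0343. Without 4 libraries that stand apart, Fcer1a was at −0.0711, Fcer1g at −0.0533 and Btk at −0.179. In cells with at most 50% Gm transcripts, Fcer1g was at −0.0174, Lyn at −0.134 and Fyn at 0.0224. With 1 mouse left out in turn, Fyn ranged from −0.0744 to 0.0142, Btk from −0.0282 to 0.0985, Fcer1a from −0.0694 to 0.143 and Fcer1g from −0.0302 to 0.0653. In the cytokine split, the log2 difference changed sign for genes that passed no test. With 500 UMIs per cell, Ms4a2 was at −0.144, Lyn at −0.0102 and Plcg2 at 0.224. Without the library richest in macrophage markers, Ms4a2 was at −0.03 and Fyn at −0.0279. Without the library richest in keratinocyte markers, Ms4a2 was at −0.0126 and Syk at −0.000947. Without the libraries richest in macrophage and in keratinocyte markers, Fcer1a was at −0.0104, Ms4a2 at −0.0626, Syk at −0.0374 and Fyn at −0.0572. Without 4 libraries that stand apart, Fcer1a was at −0.123, Ms4a2 at −0.121, Fcer1g at −0.0141, Syk at −0.0585, Fyn at −0.047 and Lat at −0.0288. In cells with at most 50% Gm transcripts, Ms4a2 was at −0.0115 and Plcg2 at 0.05. With 1 mouse left out in turn, Lat ranged from −0.0175 to 0.149, Fcer1a from −0.047 to 0.126, Ms4a2 from −0.00134 to 0.0327 and Syk from −0.0129 to 0.14. In the protease split, the log2 difference changed sign for genes that passed no test. Without 4 libraries that stand apart, Syk was at −0.0261. In cells with under 0.1% markers of other cell types, Syk was at −0.108.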
